A study of Mus musculus with 6 samples.

Results

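The seed of a miRNA is the stretch of bases by which it pairs with its target mRNAs. The miR-181 family is a set of miRNAs from hairpins whose 5′ arm products share a seed. Its members were taken by name from the deposited table of mature miRNAs. The rule uses no values, but earlier results of these data were known when it was set. All 7 names were found, in 9 rows of which 2 were exact repeats, among 1907 distinct miRNAs. They are 4 products of the 5′ arm of the hairpin (miR-181a-5p, miR-181b-5p, miR-181c-5p and miR-181d-5p) and 3 of the 3′ arm (miR-181a-1-3p, miR-181a-2-3p and miR-181c-3p).

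Small RNA libraries were made from healthy liver of chow-fed C57BL/6N mice aged 12 weeks, 3 females and 3 males, with no genetic change and no treatment in either group. The animals are described as littermates, and each library was taken as 1 animal. The study concerns SAB, a mitochondrial protein, and acute liver injury that differs by sex, and the design sets female against male liver before any injury. Libraries held 3285249 to 16444674 counts, and miR-122-5p, the miRNA that marks hepatocytes, took 32.5 to 35.5% of them.

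As background, a mammalian genome carries the family as paired hairpins at separate places. The 5p products are best known from lymphocytes: miR-181a tunes how strongly a T cell responds through its antigen receptor by repressing phosphatases, and miR-181b dampens NF-kB signalling in endothelium by repressing an importin. In liver the family has been linked to TGF-beta signalling, and miR-181c has been found inside mitochondria of heart muscle.

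The 5p sequences are shown first because their common seed defines the family. They were taken from RefSeq (GRCm38.p6, the build called mm10), where all 7 members matched by name. Sequences run 5′ to 3′, and capitals mark the seed, bases 2 to 8.
miR-181a-5p: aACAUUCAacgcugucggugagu
miR-181b-5p: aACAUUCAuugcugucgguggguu
miR-181c-5p: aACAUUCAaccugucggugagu
miR-181d-5p: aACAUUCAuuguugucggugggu
Of 1679 mature miRNAs in the RefSeq table, these 4 carry the seed ACAUUCA. Counted from the 5′ end, miR-181b-5p differs from miR-181a-5p by A9U, C10U and A21G and is longer at its 3′ end. Between miR-181b-5p and miR-181d-5p the single substitution is C12U, and miR-181c-5p equals miR-181a-5p with the G at position 11 removed. All the differences lie outside the seed. Reads of such close sequences can be assigned to the wrong member, so the split between miR-181b-5p and miR-181d-5p, and between miR-181a-5p and miR-181c-5p, is uncertain.

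The 3p sequences are shown because they tell apart the hairpins from which the common 5p products come.
miR-181a-1-3p: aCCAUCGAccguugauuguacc
miR-181a-2-3p: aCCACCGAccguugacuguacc
miR-181c-3p: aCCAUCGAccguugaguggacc
Here miR-181a-1-3p and miR-181c-3p share the seed CCAUCGA and differ by U16G and U19G. The third, miR-181a-2-3p, differs from miR-181a-1-3p by U5C and U16C, and the first of these changes the seed.

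The hairpins lie in 3 pairs. On the plus strand of chromosome 1, Mir181a-1 (137966455 to 137966541) and Mir181b-1 (137966639 to 137966718) are 97 bases apart. Both sit in an intron of the noncoding gene Gm4258, and Mir181b-1 also lies in an exon of the lincRNA A430106G13Rik, which overlaps the last bases of Mir181a-1. On the plus strand of chromosome 2, Mir181a-2 (38852735 to 38852810) and Mir181b-2 (38853830 to 38853918) are 1019 bases apart, within an intron of Nr6a1, which runs on the other strand. The pair on the minus strand of chromosome 8, Mir181c (84178873 to 84178961) and Mir181d (84178716 to 84178787), is 85 bases apart in an intron of Nanos3, on the same strand as the gene. The same mature miR-181a-5p and miR-181b-5p come from chromosomes 1 and 2, so their counts cannot be assigned to either place.

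**Figure D1:**
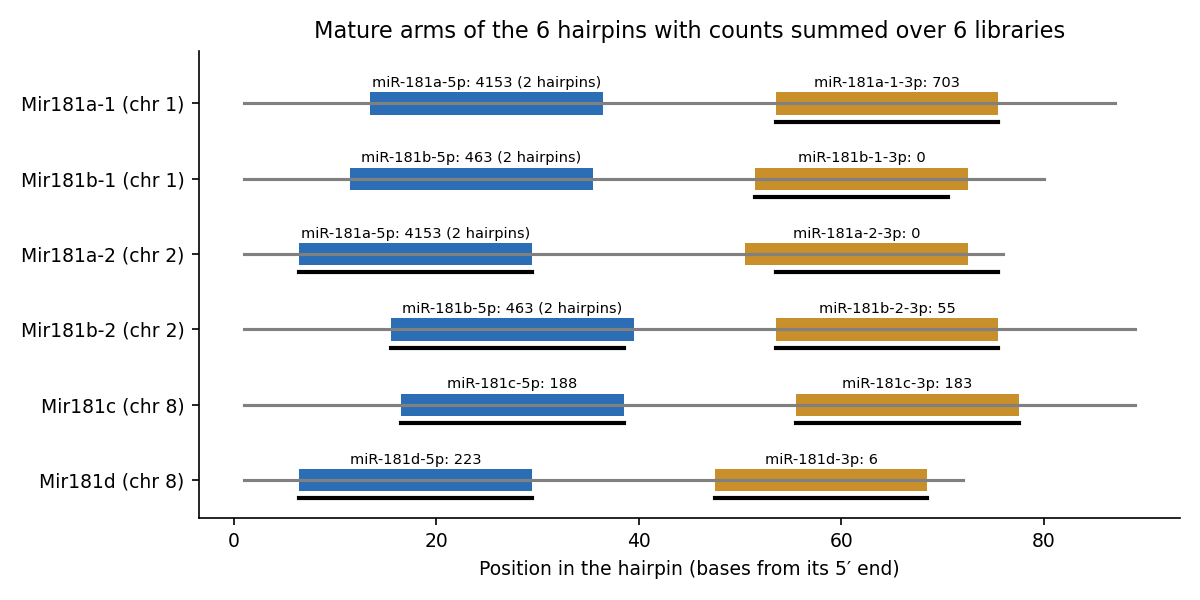
Position of the mature arms along each hairpin, in bases from its 5′ end (grey line, the hairpin; blue, 5p; ochre, 3p, as RefSeq places them; black line below, the window in the deposited table), with the counts summed over 6 libraries. The sequences of miR-181a-5p (4153 counts) and miR-181b-5p (463) occur in 2 hairpins each, so these counts are drawn at both. Their table windows lie on chromosome 2 alone. The table window of miR-181a-2-3p starts 3 bases after the RefSeq arm.

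Liver held little of the family, and most of it was miR-181a-5p. The 7 members summed to 5913 counts, 0.0148% of all counts over the 6 libraries (0.0127 to 0.0196% in a library). CPM are counts scaled to 1000000 with library sizes adjusted by TMM, a method that aligns the bulk of the miRNAs between libraries. The mature sequences are nearly of 1 length. How well a small RNA enters a library also depends on its sequence, which was not tested, so the order of the members and the shares of the arms are those of the libraries. Female replicates 1, 2 and 3 held miR-181a-5p at 133, 99.9 and 128 CPM (803, 361 and 449 counts). Male replicates 1, 2 and 3 held 88.8, 125 and 92.1 CPM (561, 529 and 1450 counts). The highest male lay between the female values, so the groups overlapped. By mean level, miR-181a-5p ranked 113 of the 370 miRNAs with enough counts to be tested.

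Second came miR-181a-1-3p, the other arm of the chromosome 1 hairpin, with 20.8, 17.2 and 17.4 CPM in the females and 16.0, 20.5 and 16.9 CPM in the males. Its range did not meet that of miR-181a-5p, whose lowest library was at 88.8 CPM. Next was miR-181b-5p, with 16.2, 9.41 and 9.12 CPM in the females and 9.97, 14.6 and 11.0 CPM in the males. The miR-181a-1-3p count was above that of miR-181b-5p in 6 of 6 libraries, although their ranges of CPM across libraries overlapped. Female replicate 1 and male replicate 2 were the highest of their sex for both.

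The chromosome 8 products were the lowest members with counts. For miR-181d-5p the females held 6.11, 5.26 and 5.99 CPM and the males 6.80, 5.90 and 4.95 CPM, so both sexes lay within the same narrow range. For miR-181c-5p the females held 5.61, 5.26 and 4.85 CPM while the males held 3.64, 6.37 and 4.32 CPM, and the males spread on both sides of the females. For miR-181c-3p, from the opposite arm, they were 5.28, 6.09 and 6.27 CPM in females (32, 22 and 22 counts) and 3.96, 4.25 and 4.06 CPM in males (25, 18 and 64 counts). Here each female lay above each male. The order among these 3 was not settled: miR-181d-5p had more counts than miR-181c-5p in 4 of 6 libraries, and miR-181c-5p more than miR-181c-3p in 3 of 6. All of miR-181b-5p lay above all of miR-181d-5p.

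**Figure D2:**
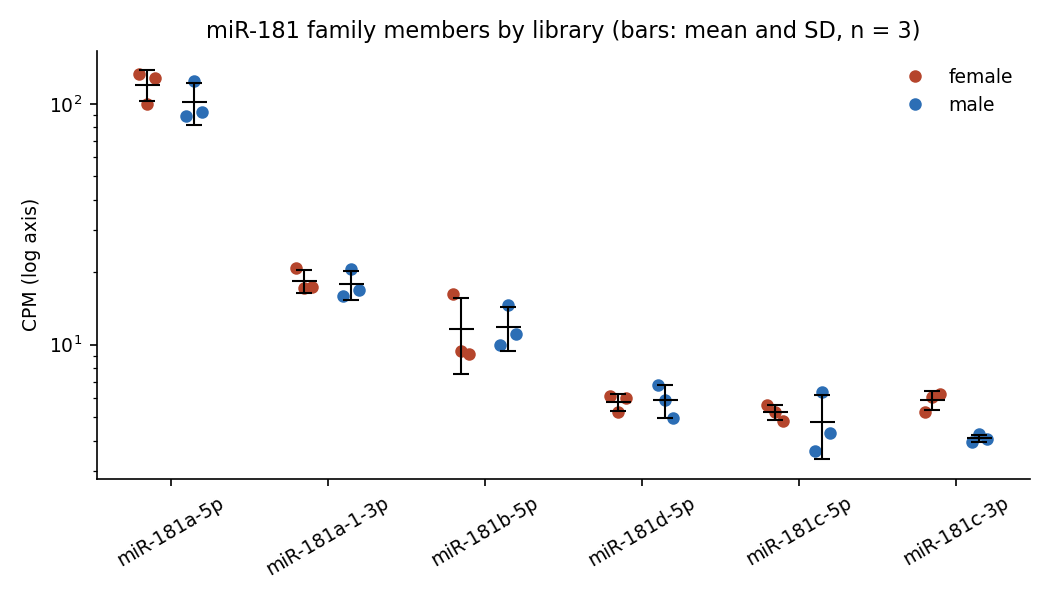
CPM (log axis) of the 6 members with counts in female and male libraries; each point is 1 library, and black marks give the mean and SD of 3. The libraries of miR-181a-5p lie between 88.8 and 133 CPM, and only those of miR-181c-3p separate by sex.

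For the low members the spread between libraries was close to or below what counting alone would give. The coefficient of variation over the 6 libraries was 19.3% for miR-181c-5p, 20.9% for miR-181c-3p and 11.2% for miR-181d-5p. The typical counting error of a library was 19.8, 19.7 and 18.4% for the same miRNAs, taking counts as Poisson. For miR-181a-5p the spread was 17.7% against a counting error of 4.20%, so the libraries differed beyond counting. With a single library per animal, differences between animals and between library preparations cannot be told apart. The spread of miR-181b-5p, 25.3%, was also above its counting error of 13.5%, while that of miR-181a-1-3p, 11.2%, was close to its 10.5%. Counting errors and intervals cover counting alone, because PCR copies of a molecule are counted as separate reads unless they were collapsed.

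The last member, miR-181a-2-3p, had no count in any library. In a total of 40037176 counts this allows up to 0.076 CPM (3 counts over all libraries), and between 0.191 CPM in the deepest and 0.855 CPM in the shallowest library. That limit holds for the window which the table uses, and this window is unusual. It runs from 38852788 to 38852809 on chromosome 2, whereas RefSeq places the miRNA at 38852785 to 38852806. The hairpin is shown because it makes the shift visible, with the RefSeq arms in capitals.
Mir181a-2: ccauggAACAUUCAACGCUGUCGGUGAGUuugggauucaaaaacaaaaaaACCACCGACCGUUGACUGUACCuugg
table window: accgaccguugacuguaccuug
The table window lacks the first 3 bases of the RefSeq arm and takes 3 bases after it. Of the 1621 miRNAs in the table that matched a RefSeq position by name and place, 1613 had the same first and last base, and 251 of these (15.6%) were at 0 in every library. The first base differed by 3 or more for only 2, miR-181a-2-3p and 1 other miRNA, and both were at 0, which is too few to compare. Whether the shifted window accounts for the missing counts was not tested. The absence of counts therefore does not show that the chromosome 2 hairpin is silent in liver.

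Other products of the same hairpins, outside the 7 names, were all too low to be tested. On chromosome 2, miR-181b-2-3p had counts in every library, 13, 5 and 1 in females and 15, 4 and 17 in males, a mean of 1.37 ± 0.781 CPM (SD, n = 6). From the summed counts over summed library sizes, its female to male ratio was 1.05 (95% exact counting interval 0.571 to 1.89). The means of the library values lay the other way, at 1.27 CPM for the females and 1.47 for the males, so its counts gave no direction. In RefSeq this arm belongs to the chromosome 2 hairpin alone. Over their common length it differs from its counterpart on chromosome 1 only by A9U, so reads can be assigned to the wrong product. That counterpart, miR-181b-1-3p, was at 0 in every library, and its table window of 19 bases ends 2 bases short of the 21 in RefSeq. Of the 6 miRNAs whose table window differed from RefSeq at the last base alone, 2 were at 0 in every library. Whether the short window accounts for the missing counts of miR-181b-1-3p was not tested. The opposite arm of miR-181d-5p, miR-181d-3p, had 6 counts in all.

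As counted, use of the arms differed between the hairpins. These shares carry the uncertain split among the close 5p sequences, which their intervals do not cover. Over all libraries miR-181c-5p and miR-181c-3p had 188 and 183 counts, so that 50.7% fell on the 5p arm (95% exact binomial interval 45.5 to 55.9%). By library this share was 51.5, 46.3 and 43.6% in females and 47.9, 60.0 and 51.5% in males, and each interval contained equal use. The neighbouring hairpin was one-sided: 223 of 229 counts of Mir181d (97.4%, interval 94.4 to 99.0%) lay on the 5p arm, and the lowest library had 19 of its 20 counts there. Of miR-181a-5p and miR-181a-1-3p together, 85.5% were 5p (84.5 to 86.5%), from 84.5 to 88.0% in a library. This last share may mix 2 hairpins, because the same 5p sequence comes from both. The ratio of miR-181a-5p to miR-181a-1-3p was 5.44 to 7.31 across libraries.

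Among the 4 products that share the seed, miR-181a-5p held most of the counts in every animal. Its share was 82.6, 83.4 and 86.5% in females and 81.3, 82.3 and 81.9% in males. Every female was above every male, by 2.33 percentage points on average (84.2 ± 2.07% against 81.8 ± 0.489%, SD, n = 3 each; exact two-sided permutation test p = 0.1, the smallest that 3 against 3 allow; adjusted p = 0.467 over 7 shares and ratios). Without female replicate 3, the highest, the difference was 1.16 percentage points. Shares of miR-181b-5p ran from 6.17 to 10.1%, of miR-181d-5p from 3.81 to 6.23% and of miR-181c-5p from 3.28 to 4.39%, and the sexes overlapped in each. The sum of miR-181a-5p and miR-181b-5p was 9.39 to 12.6 times the sum of the chromosome 8 pair, 11.7-fold in females and 10.5-fold in males (exact permutation p = 0.3, adjusted p = 0.467). The other ratios had an exact permutation p of 0.2, for miR-181a-5p over miR-181a-1-3p and for miR-181c-5p over miR-181c-3p, again with an adjusted p of 0.467.

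**Figure D3:**
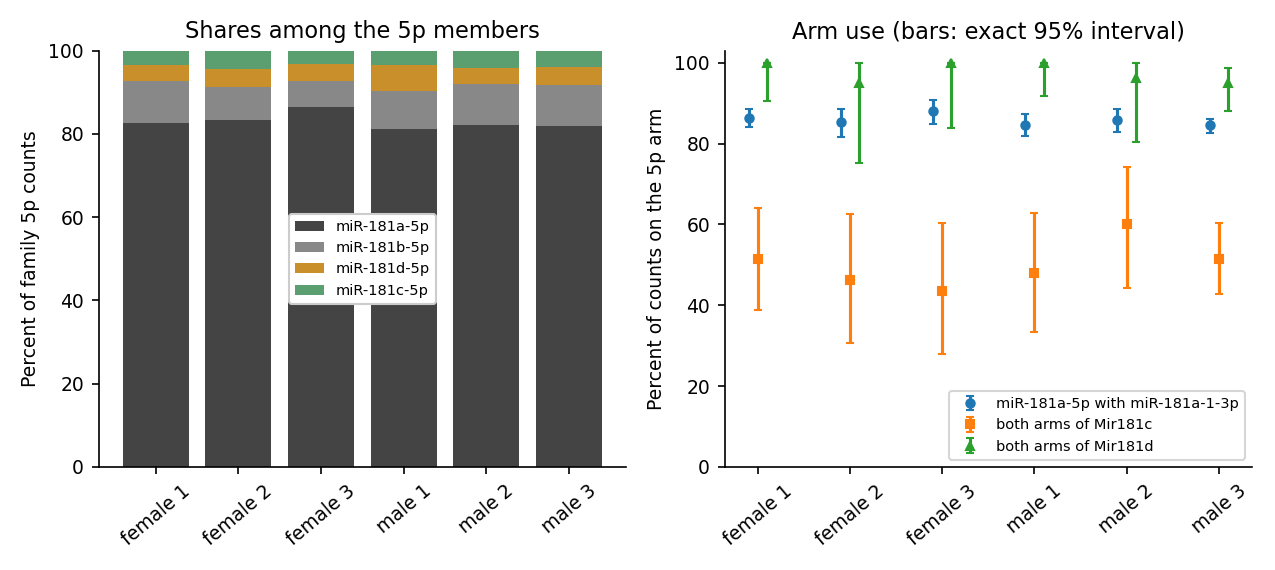
Left, the percent of the family's 5p counts held by each 5p member in each library; right, the percent of counts on the 5p arm, with exact 95% binomial intervals. The share of miR-181a-5p is 81.3 to 86.5%; on the right the Mir181c arms lie around equal use and those of Mir181d and miR-181a near the top.

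No member passed the test for a difference between the sexes. Of the 6 tested members, 0 passed an adjusted p of 0.05 in the edgeR quasi-likelihood test, against 6.76% of all 370 tested miRNAs (25 miRNAs; 3.24% higher and 3.51% lower in females). None of the 6 had an unadjusted p under 0.05 (0 against 18.1% of all), and 0 passed in DESeq2 or limma-voom. All 6 log2 fold changes of female over male were positive, with a median of 0.13 against -0.01 over all tested miRNAs, of which 48.1% were positive. Those of miR-181b-5p (0.0088, SE 0.28) and miR-181d-5p (0.0033, SE 0.26) were close to 0. The members share libraries and in part hairpins, so their signs are not independent. With upper-quartile scaling the log2 fold changes of miR-181a-1-3p, miR-181b-5p and miR-181d-5p were negative. That scaling moved all miRNAs nearly alike, with a median of 0.04 for the members against -0.10 for all.

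For miR-181a-5p, the main member, the female mean was 120 ± 17.7 CPM and the male mean 102 ± 20.0 CPM, with SD over 3 animals. Its log2 fold change was 0.24 (SE 0.19, 95% interval -0.18 to 0.67; adjusted p = 0.587, edgeR with Benjamini-Hochberg adjustment). These bounds correspond to 0.881-fold and 1.59-fold, so a female excess above 1.59-fold lies outside the interval. The interval of miR-181a-1-3p, around a log2 fold change of 0.07, was -0.39 to 0.52 (adjusted p = 0.896, edgeR). Around 0.01, that of miR-181b-5p was -0.59 to 0.61 (adjusted p = 0.995, edgeR). All 3 intervals include 0.

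On chromosome 8, miR-181c-3p had the largest difference of the tested members. The female mean was 5.88 ± 0.525 CPM and the male mean 4.09 ± 0.148 CPM, with SD over 3 animals. The log2 fold change was 0.51 (SE 0.26, 95% interval -0.06 to 1.09; unadjusted p = 0.076, adjusted p = 0.323, edgeR). It was the only 1 of the 6 whose groups did not overlap, as was the case for 21.6% of all tested miRNAs. Over the other fits its log2 fold change ranged from 0.42 to 0.65. The partner arm miR-181c-5p stood at 0.18 (-0.46 to 0.83, adjusted p = 0.795, edgeR). The neighbour miR-181d-5p stood at 0.0033 (-0.57 to 0.58, adjusted p = 0.996, edgeR). These 3 members had 17 to 78 counts a library, and the upper bounds of their intervals were 2.13-fold, 1.78-fold and 1.49-fold.

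Summed over the 4 products that share the seed, the family reached 160, 120 and 148 CPM in females and 109, 152 and 112 CPM in males. Means were 143 ± 20.8 and 124 ± 23.7 CPM (SD, n = 3 each). The difference of 18.3 CPM was smaller than the spread within either sex, with p = 0.3 in an exact permutation test (two-sided). It ranged from 7.99 CPM without female replicate 1 to 33.3 CPM without male replicate 2, and was 9.38 CPM without male replicate 1 and 28.9 CPM without female replicate 2. Male replicate 2 lay above female replicates 2 and 3, so the groups overlapped.

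**Figure D4:**
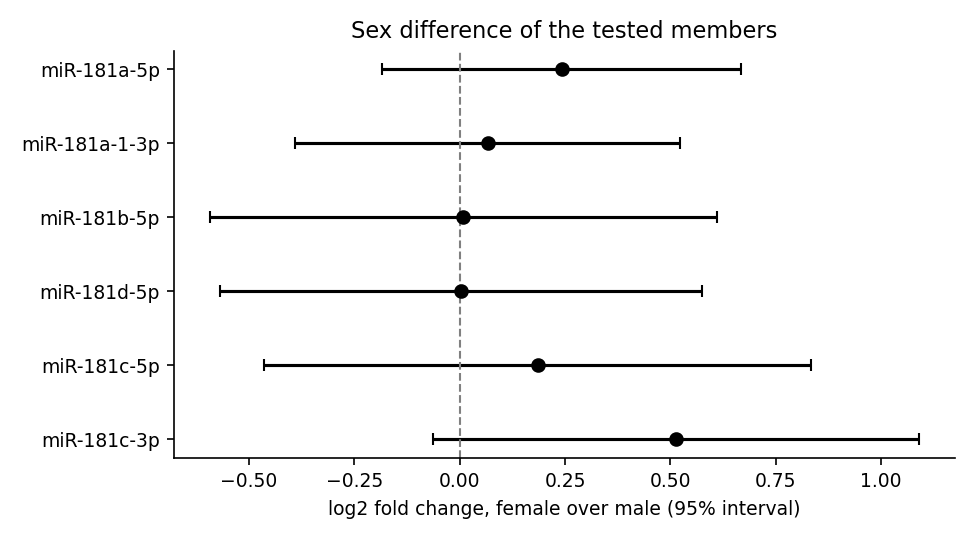
Log2 fold change, female over male, of the 6 tested members with 95% intervals derived from the edgeR fit. All 6 intervals include 0; that of miR-181c-3p, -0.06 to 1.09, reaches farthest to the right.

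Because the family is known from blood and vessel cells, marker miRNAs of other cells are given beside it. The 6 leukocyte markers summed to 6559 to 6745 CPM in females and 4895 to 6449 CPM in males, with no overlap. Their median log2 fold change was 0.30, and 1 of 6 passed, higher in females (miR-223-3p, at 0.62, adjusted p = 0.0467, edgeR). This call was lost with upper-quartile scaling (0.107), in limma-voom (0.0556), and when the fit lacked male replicate 3 (0.133), female replicate 2 (0.14) or female replicate 3 (0.273), all adjusted p-values. The most abundant of them, miR-142a-3p and miR-146a-5p, stood at 0.24 and 0.16. Stromal markers went the other way, from 8916 to 11436 CPM in females and 12108 to 12796 CPM in males, with 0 of 5 past the threshold and a median of -0.21. The 2 endothelial markers had a median of -0.02, and their sums overlapped, from 67757 to 71793 CPM in females against 68743 to 76011 CPM for the males. None of the 4 erythroid (median 0.18) or 4 biliary markers (-0.18) passed. The 5 hepatocyte markers summed to 370589 to 374392 CPM in females and, with no overlap, to a higher 396809 to 440342 CPM in males. Most of this sum was miR-122-5p, with a log2 fold change of -0.21 (adjusted p = 0.053, edgeR). The median of the 5 was 0.17, and 1 passed, miR-802-5p, higher in females. No marker was at 0. The marker sums were not tested and rest on the TMM scaling. Among all tested miRNAs taken singly, the groups did not overlap for 21.6%. Over the 6 libraries, the Pearson correlation of the log2 marker sum with miR-181a-5p was 0.08 for leukocyte and -0.16 for hepatocyte markers. It was -0.25 for erythroid, -0.34 for biliary, -0.39 for stromal and -0.43 for endothelial markers, given as a description. In whole liver a change in the number of such cells and a change in the RNA per cell cannot be told apart. The part of these cells in the values of the family was not tested.

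Across the 6 libraries, the levels of the members did not all follow miR-181a-5p. The Pearson correlation of log2 CPM with it was 0.81 for miR-181a-1-3p, 0.77 for miR-181c-5p, 0.54 for miR-181b-5p, 0.49 for miR-181c-3p and 0.19 for miR-181d-5p. The median over the other 369 tested miRNAs was -0.05. Outside the family the 5 most alike were miR-28a-3p (0.94), miR-378d (0.89), miR-194-1-3p (0.88), miR-6236 (0.86) and miR-3968 (0.84). None of these 5 passed the test for sex (adjusted p of 0.587 to 0.894, edgeR). The closest, miR-28a-3p, had 174, 147 and 171 CPM in females and 121, 161 and 142 CPM in males. Male replicate 2 was high and female replicate 2 low within their sex, as for miR-181a-5p. The best of 369 correlations over 6 libraries, which share their scaling, were picked for being high, and they are given as a description.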

How the data were processed

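The authors deposited estimated counts for each mature miRNA in 6 liver libraries, with no scaling. The mm10 build, Bowtie and Partek are named in the submitters' processing notes; how reads were trimmed, shared among similar miRNAs or collapsed by molecular identifier is, in the sources used here, not given. Exact repeats (138 of 2045 rows) were kept once, table stops were taken to lie 1 base past the end, and counts were rounded to whole numbers. Libraries were grouped by the sex in the labels, with replicates numbered in accession order, which pairs no animals. No library pair was a duplicate (chi-square per degree of freedom of at least 29.4). The labels name no batch.

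The whole table was fitted in edgeR 4.0.16 for sex by quasi-likelihood (R 4.3.3; TMM, filterByExpr with a minimum count of 10 and total of 15, robust option), with Benjamini-Hochberg adjustment over 370 tested miRNAs and a threshold of 0.05. The test was tried on simulated counts first. DESeq2 1.42.0, limma-voom (limma 3.58.1), other scalings and filters, and leaving out each library were alternatives. Sums, shares and ratios had exact permutation tests; ratios had 0.5 added to each count. Hosts come from GENCODE M21. The rule for naming took the 7 members, the other products of their hairpins, the most abundant markers of 6 lists (at most 2 of each), and the 5 tested miRNAs most correlated with the most abundant member (log2 CPM, prior count 2). The markers miR-223-3p and miR-802-5p were named after their values were seen. Members and lists were chosen with earlier results of these data known.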

Additional observations from a re-analysis of the deposited data

How the results depend on the processing

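No member passed the threshold in any of 15 other fits (lowest adjusted p = 0.161, miR-181c-3p with no TMM factor). Before adjustment, 2 of the 87 member values in these fits had a p under 0.05. Of 87 log2 fold changes of members in these fits, 73 kept their sign and 14 changed it; miR-181a-5p (0.14 to 0.42), miR-181c-5p (0.022 to 0.39) and miR-181c-3p kept theirs in each fit that tested them. With upper-quartile factors miR-181a-1-3p stood at -0.022, miR-181b-5p at -0.077 and miR-181d-5p at -0.089. With no TMM factor the median of all tested miRNAs moved to 0.13. The minimum count of 50 put miR-181b-5p at -0.012 and left the chromosome 8 members untested. For miR-181d-5p the values were -0.0013 with RLE factors and -0.0060 in DESeq2. Leaving out each library gave -0.050 to 0.18 for miR-181a-1-3p, -0.36 to 0.18 for miR-181b-5p and -0.13 to 0.10 for miR-181d-5p; without female replicate 1, miR-181b-5p was at -0.36. The female minus male share of miR-181c-5p, -0.071 percentage points, ranged from -0.40 to 0.15. The 25 miRNAs past the threshold became 9 to 32 when a library was left out, with 9 if this was female replicate 2, 10 for female replicate 3 and 12 for male replicate 3. The cause of these changes was not tested. The family's sum, the other shares and the ratios kept their direction but not their size. The female minus male sum was 32.0 CPM with no TMM factor, 10.5 CPM with upper-quartile factors and 32.7 CPM with repeated rows kept. Without a library the difference in share ran from 1.16 to 3.11 percentage points for miR-181a-5p, -2.53 to -0.567 for miR-181b-5p (-0.567 without female replicate 3, -2.53 without female replicate 1) and -1.24 to -0.067 for miR-181d-5p (-0.067 without male replicate 1, -1.24 without male replicate 2). In log2 units it ran from 0.096 (without female replicate 3) to 0.27 for miR-181a-5p over miR-181a-1-3p and from -0.49 to -0.15 (without male replicate 2) for miR-181c-5p over miR-181c-3p. For miR-181a and miR-181b over the chromosome 8 pair it ran from 0.071 (without male replicate 1) to 0.25 (without female replicate 2). Counts of miR-181c-5p were 17 to 34 in 5 of the libraries, and its typical counting error was 19.8%. No paired analysis was possible because the labels do not say which female and male animals form a pair.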
